A study of Triticum aestivum with 6 samples.

Results

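The 6 wheat genes described here are grouped by their descriptions: 3 genes with a histone-fold domain, whose function is not stated, 1 DNA topoisomerase 2 gene, 1 gene for condensin complex subunit 2 and 1 tubulin beta chain gene. They were chosen because their description in the authors' deposited DESeq2 table names one of these proteins and because the description belongs to the same gene as the measured transcript model. That table lists only genes with an adjusted p-value (false discovery rate, FDR) under 0.05. The members are 6 of 861 listed genes, and all of them passed that threshold by construction. All values below for this comparison chose the members and are given as a description, without a test.

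The study asked how sonication of the dry seed affects the seedling of hexaploid winter wheat (Triticum aestivum, breeding line SE15). Leaf RNA was sequenced 7 days after germination in 3 samples from ultrasound-treated seeds and 3 from untreated control seeds. Ultrasound was applied before germination at 30 kHz and 70 W for 5 minutes, 4 cm from the head, and both groups of 100 seeds with a water content of 13.6% then germinated at 20 °C in the dark. Whether the samples of a group were pooled seedlings or came from separate dishes is not stated beyond their being called independent biological samples.

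The comparison is between groups that the file headers call K1 and US1. The headers do not say which of them is the numerator or which libraries entered, so a gene is called positive or negative by the sign of its deposited log2 fold change. Positive would mean more RNA after ultrasound only if US1 was divided by K1. No value per library was at hand, so levels, depth and the spread between samples are unknown, n is at most 3 per group, and the leaf label could not be checked from expression levels. In bulk tissue, a change in the number of cells of a type and a change of RNA per cell cannot be told apart.

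Core histones are small proteins that pair through the histone fold and wrap DNA into nucleosomes, and most of their synthesis accompanies DNA replication in dividing cells. The same fold also occurs in proteins that are not core histones, such as subunits of some transcription factor complexes. DNA topoisomerase 2 passes one DNA double strand through another and so untangles replicated chromosomes, condensin compacts chromosomes for division, and tubulin beta chains form microtubules together with tubulin alpha chains. In the grass leaf, cell division is concentrated near the base of the blade.

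All 6 members lay on the positive side in the authors' deposited table. Their log2 fold changes fell into separate ranges, with the histone-fold genes between 4.50 and 6.15 and the other 3 genes between 1.72 and 1.84. The lowest histone-fold value exceeded the highest of the other 3 by 2.67 on the log2 scale. Of about 76618 tests implied by the FDR values, 1.12% were listed and 0.576% were listed on the positive side, and of the listed genes 51.2% were positive. Of the 232 listed genes with a description of their own, from which the keywords take the members and the lists below, 70.3% were positive, against 44.2% of the others. Because the members were taken from that list, nothing is read from these shares. The median over the members was 3.17, and no member lay near that value. Over the 441 listed positive genes the median was 1.90, which is near the values of the other 3 genes.

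**Figure D1:**
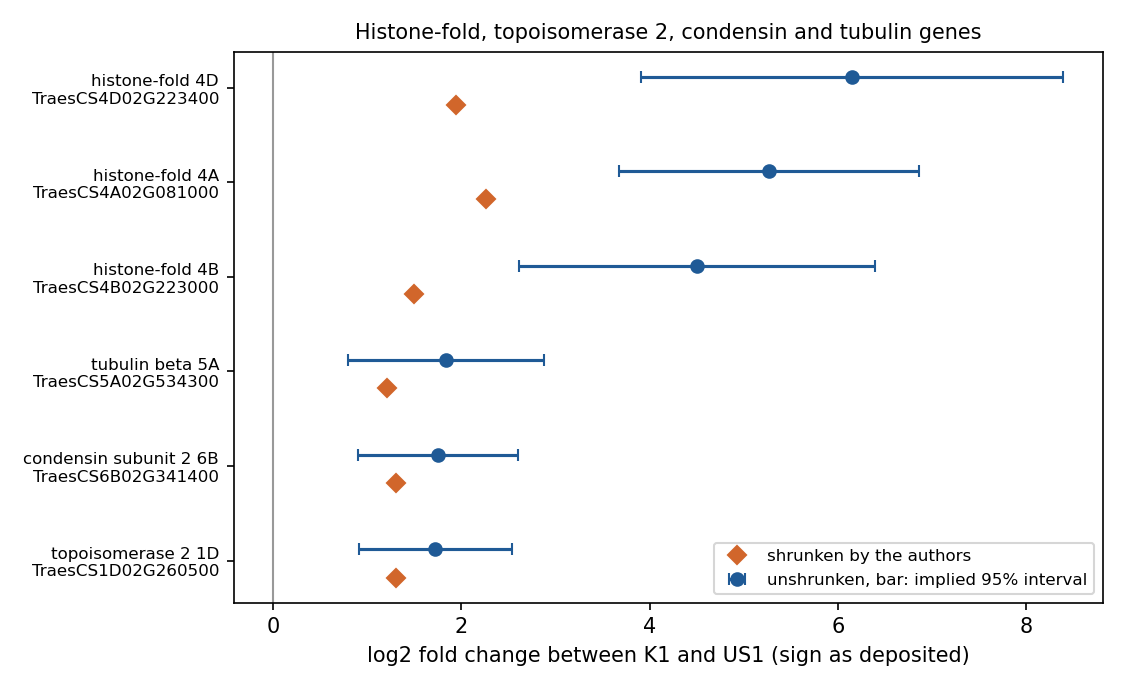
Log2 fold change of the 6 members between K1 and US1 (horizontal axis, sign as deposited), with circles for the unshrunken value, bars for its implied 95% interval and diamonds for the value shrunk by the authors. All 6 lie to the right of 0, and the 3 histone-fold genes move far more on shrinkage than the other 3.

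The histone-fold genes were one each on chromosomes 4A, 4B and 4D, so that each subgenome of the hexaploid held 1. All 3 descriptions were projected from the same rice gene, Os03g0251350, and no other listed gene carried that description. The files state neither which kind of histone-fold protein this is nor that the 3 genes are homoeologues, the corresponding copies in the subgenomes. TraesCS4A02G081000 spans 83571253 to 83572472 on the minus strand of 4A (1220 bp). TraesCS4B02G223000 spans 467716892 to 467718672 on the plus strand of 4B (1781 bp), and TraesCS4D02G223400 spans 380294252 to 380296314 on the plus strand of 4D (2063 bp). The 4A gene thus lies in the opposite orientation to the other 2, and as background, wheat chromosome 4A is known for a large inversion around its centromere. No source used here names the genome build of these positions, and each was annotated only as a gene, with no exon, intron or UTR stated.

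TraesCS4A02G081000 had the lowest p-value of the members and ranked 31 of the 861 listed genes. In the authors' deposited table its log2 fold change was 5.27 (implied standard error, SE, 0.81), a ratio of 38.6, and the adjusted p from DESeq2 was 2.28e-07. TraesCS4D02G223400 had the largest unshrunken value, 6.15 (SE 1.14), a ratio of 71.1, and its DESeq2 adjusted p in that deposited table was 8.07e-05. For TraesCS4B02G223000 the deposited value was 4.50 (SE 0.96), a ratio of 22.7 (DESeq2 adjusted p = 0.00123). All 3 are therefore large and imprecise. Their implied 95% intervals, from 3.68 to 6.87 on 4A, 3.91 to 8.39 on 4D and 2.62 to 6.39 on 4B, overlap widely. The span of 1.65 between the highest and the lowest was not tested, so an order among the 3 copies is not shown.

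The shrunken values, in which the authors pulled imprecise fold changes toward 0, give another order. On the authors' shrunken log2 scale the 4A gene stood highest at 2.26, the 4D gene was at 1.95 and the 4B gene at 1.50. In linear terms these are ratios of 4.80, 3.85 and 2.82. Among the 441 positive genes of the deposited table, the 4D, 4A and 4B genes ranked 20, 30 and 38 by unshrunken size, and 22, 9 and 92 by shrunken size. The 4A gene was thus the one histone-fold gene that moved up when precision was weighed in. No source used here says how the authors assigned reads that match more than one of these copies, so the split of signal between the 3 genes is uncertain.

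The 4A gene was also the only member in the authors' second deposited table, which lists 52 genes by a score called the Z-score of the difference, 0.0433% of about 120099 implied tests. There it had a Z-score of -4.38 with an FDR of 0.0229 and ranked 31 by p-value. Its deposited p-value of 5.90e-06 equals the one-sided normal tail of that score, and the two-sided tail would be 1.18e-05. The sign is opposite to that of this gene's log2 fold change. Of the 18 genes found in both tables, 15 had a negative Z-score. In the second table all 20 chlorophyll a-b binding and all 6 Rubisco small chain genes also had a negative Z-score. All 37 and all 9 listed genes of these families had a positive log2 fold change. Any gene of these families in both tables thus has opposite signs, as the 4A gene does. Signs of the 18 shared genes were not compared one by one, and whether the orientation of the columns differs was not tested. Both tables compare K1 with US1 and may share their libraries, so the second is not independent support for the first. No source used here names the test behind the score, and no core histone gene was in the second table.

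**Figure D2:**
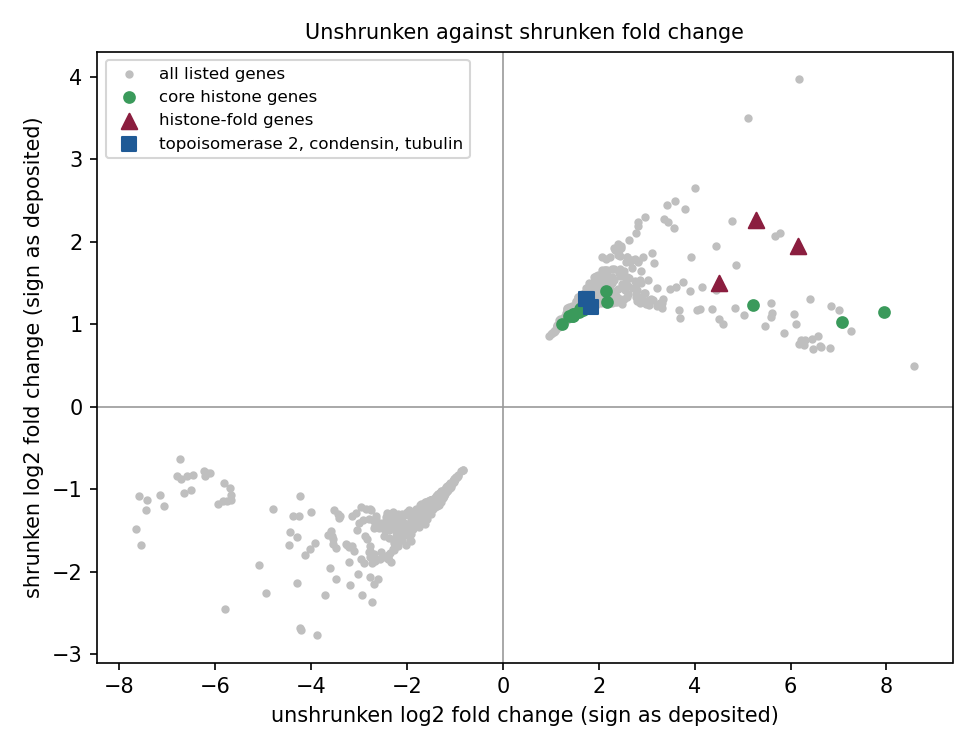
Unshrunken (horizontal) against shrunken (vertical) log2 fold change, sign as deposited, for all 861 listed genes, with the members and the 19 core histone genes marked. The histone-fold triangles lie above the 3 core histone genes with unshrunken values of 5.21, 7.07 and 7.95, which shrink to between 1.02 and 1.23.

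The topoisomerase 2 gene, TraesCS1D02G260500, lies on the plus strand of 1D from 355072353 to 355079652 (7300 bp). Its deposited log2 fold change was 1.72 (SE 0.42, implied 95% interval 0.91 to 2.54), a ratio of 3.30 (DESeq2 adjusted p = 0.00781), with a shrunken value of 1.31. A second listed gene, TraesCS1D02G260600, lies on the opposite strand from 355076896 to 355083304. The 2 models share 2757 bp, which is 37.8% of the topoisomerase gene and 43.0% of its partner. In the authors' deposited table the partner stood at 1.67 on the log2 scale (SE 0.41, DESeq2 adjusted p = 0.0105), which is 0.055 below that of the topoisomerase gene, well within either SE. The table gives the partner the description of the topoisomerase gene and none of its own. The library protocol does not say whether strand was marked or used in counting, so whether reads from the shared stretch were separated by gene is not known. The 2 listings are therefore counted as 1 measurement, whose gene of origin is uncertain.

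The condensin gene, TraesCS6B02G341400, is the longest member, spanning 10466 bp on the plus strand of 6B (601040664 to 601051129). Condensin complex subunit 2 is a non-SMC subunit that helps to hold the ring of the complex together. In the authors' deposited table its log2 fold change was 1.75 (SE 0.43, implied 95% interval 0.90 to 2.60), a ratio of 3.37. Its DESeq2 adjusted p was 0.0112 and its shrunken value was 1.30, next to the 1.31 of topoisomerase 2. Topoisomerase 2 and condensin are both needed for mitotic chromosomes. Their deposited values differed by far less than either SE, but the tubulin value of 1.84 also lay well within those SEs. No link between the genes is read from this. Among the 441 positive genes, topoisomerase 2 and condensin ranked 269 and 259 by unshrunken size and 174 and 187 by shrunken size. These ranks are near the middle of the list.

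The tubulin beta chain gene, TraesCS5A02G534300, lies on the minus strand of 5A from 691669104 to 691671174 (2071 bp). Its deposited log2 fold change was 1.84 (SE 0.53, implied 95% interval 0.79 to 2.88), a ratio of 3.57, with a shrunken value of 1.21. With a DESeq2 adjusted p of 0.0499 it sits at the very edge of the threshold, at rank 860 of 861 in the deposited table. The gene just before it in rank had an adjusted p of 0.0494, and the one after it shares the tubulin's adjusted p. Genes just outside the threshold are not analysed here. No tubulin alpha chain gene matched the keywords, so the partner of this subunit cannot be compared.

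The members were spread over 6 chromosomes, with 2 in each subgenome. For topoisomerase 2, condensin and tubulin no other listed gene had the same description as its own. Copies in the other subgenomes are not analysed here. Apart from the overlapping partner of topoisomerase 2, no member had a listed gene closer than 1346 kb. That nearest neighbour, TraesCS6B02G340400 beside condensin, lies on the negative side, with a deposited log2 fold change of -1.17 (SE 0.31). The nearest listed genes of the 4A and 4D histone-fold genes and of topoisomerase 2 were negative too, and those of the 4B gene and tubulin were positive. The members were therefore not part of runs of listed genes in the genome.

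Core histone genes, which share the fold but not necessarily the role of the histone-fold members, were set beside the members. The authors' deposited table holds 19 of them, 6 H2A, 3 H2B, 7 H3 and 3 H4 genes, all 19 on the positive side and with no H1 gene. Their median log2 fold change was 1.63, against 1.90 over all 441 listed positive genes. The topoisomerase 2, condensin and tubulin values of 1.72 to 1.84 lie between these medians, so they show no particular likeness to core histones. All 3 histone-fold genes had an FDR under 0.01, as did topoisomerase 2, so 4 of 6 members passed it, against 2 of the 19 core histones and 38.3% of the positive listed genes. Over all tests 0.471% passed it. The 3 core histone genes with an unshrunken value above that of the lowest histone-fold gene had SEs from 1.40 to 1.66. They include the largest of the list, histone H2B TraesCS5A02G384300, at 7.95 (SE 1.63, shrunken 1.15), and the smallest listed core histone was histone H3 TraesCS3D02G370500, at 1.23 (SE 0.35, shrunken 1.00). On the shrunken scale the core histones reached from 1.00 to 1.41. No core histone stood above the lowest histone-fold gene there, and 6 stood above tubulin. These differences between groups of genes were not tested, since the same contrast chose them all.

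**Figure D3:**
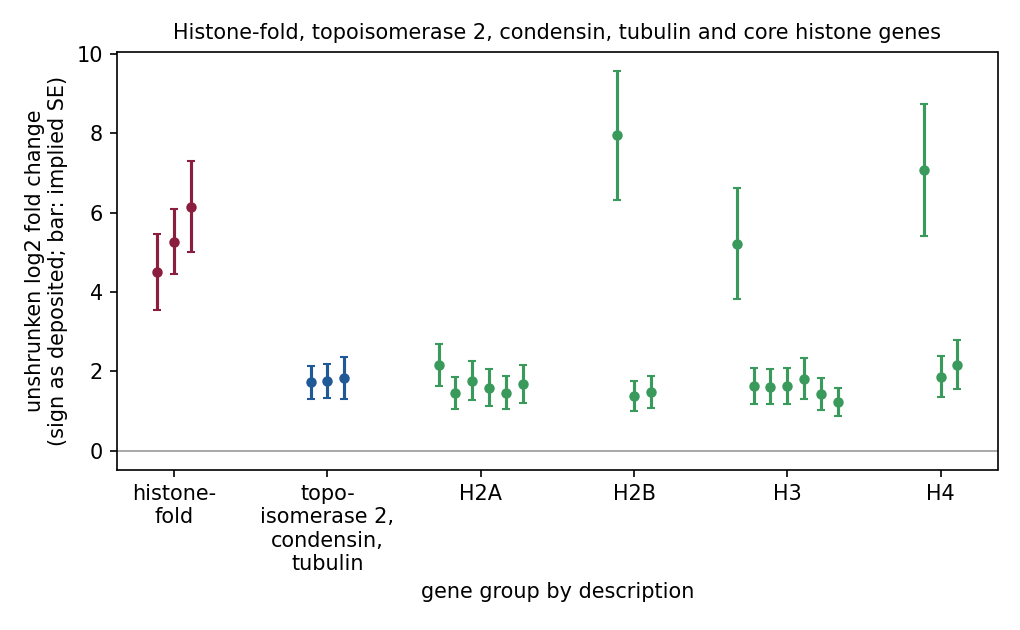
Unshrunken log2 fold change (vertical axis, sign as deposited) of each member and each of the 19 core histone genes, grouped by description, with bars for the implied SE. The topoisomerase 2, condensin and tubulin genes lie at the height of most core histones, while the histone-fold genes lie between 4.50 and 6.15. That height is also near the median of 1.90 over all 441 listed positive genes.

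Other genes of the division cycle were searched by keyword. Among the 232 listed genes with a description of their own, 0 matched the DNA replication words, such as DNA polymerase and MCM, 0 the cell cycle words, such as cyclin, and 0 the further chromatin words. Among motors and cytoskeleton 1 gene matched, the formin-like gene TraesCS1D02G010200, deposited at 1.94 on the log2 scale (SE 0.56, DESeq2 adjusted p = 0.0457). Formins nucleate actin filaments. Of the wall growth words 2 genes matched, both xyloglucan endotransglucosylase/hydrolases, which cut and rejoin wall polymers, and both were negative. TraesCS4A02G172600 had a deposited log2 fold change of -1.38 (SE 0.29) and TraesCS7A02G426100 of -1.28 (SE 0.30). Since 629 of the 861 listed genes have no description of their own and were not searched, a count of 0 here does not show absence.

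Markers of leaf tissue were listed in the same direction as the members. All 37 listed chlorophyll a-b binding genes and all 9 Rubisco small chain genes were positive, with median deposited log2 fold changes of 2.63 and 1.79, and 0 listed genes matched the seed reserve words. Levels of these markers are unknown, and their part in the values of the members was not tested. By shrunken value, the described genes nearest to the members' median of 1.40 in the authors' deposited table were a salt stress-responsive protein gene, TraesCS2A02G296400 (1.40), histone H2A TraesCS5A02G246200 (1.41) and a protein phosphatase gene, TraesCS4A02G230500 (1.40). This likeness rests on 1 comparison.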

How the data were processed

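The members and gene lists were chosen with earlier results of these data known. Per the submitters' processing notes, the authors' tools were STAR 2.7.10a, Trim Galore 0.6.7, FastQC 0.11.9 and DESeq2, with no role or order given. Per the file headers, the authors deposited a p-value, an FDR (adjusted p-value), a log2 fold change and a shrunk log2 fold change for 861 genes. A second deposited table holds 52 genes with a score (named Z-score diff), its p-value and FDR. The tables hold no counts, so the planned edgeR test was not run, and depth and precision per library are unknown.

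Each transcript model was named by the gene in its name, and 24 annotated with another gene were not given that gene's description. Every member is named, and of each list the largest and smallest unshrunken value. With Python 3.11.15 and scipy 1.17.1, the implied SE was computed by dividing the size of the log2 fold change by the normal deviate of its p-value, as a two-sided Wald test would have it. The unshrunk over shrunk ratio, minus 1, over the squared SE had a median of 1.83 (quartiles 1.82 and 1.85), but ran from 1.65 to 2.16 among the members. The number of tests was recovered from FDR, rank and p-value. The last FDR implied rank 867, so a few further genes may have passed that are not analysed here. Both derivations were tested on data simulated with the same formulas, which does not show that the deposited values follow them. The number of tests behind the Z-score was recovered with another form of the derivation, which was not simulated. The RefSeq gene table matched 0 of the 861 genes, so no sequence is shown.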

Additional observations from a re-analysis of the deposited data

How the results depend on the processing

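For the count of positive members, the alternatives only keep, drop or add listed genes, so no member's deposited sign could change. The count was 4 at an FDR under 0.01, 5 without any 1 of the topoisomerase, condensin and tubulin keywords, and 3 without histone-fold. It was 7 when the opposite-strand partner of topoisomerase 2 was added. A minimum shrunken size of 1 left 6, since the lowest member, tubulin, has a shrunken value of 1.21. Counting overlapping models separately could not change the 6, because the partner has no description of its own and is not a member. The median log2 fold change of 3.17 is unstable by construction, since it falls in the gap between the histone-fold genes and the rest. It was 4.89 at an FDR under 0.01, 4.50 without any 1 of the topoisomerase, condensin and tubulin keywords, 1.75 without histone-fold, 1.84 with the partner added and 1.40 on the shrunken scale. The division and growth lists fell from 22 genes to 4 at an FDR under 0.01, an alternative chosen after seeing the data. No paired analysis was possible because the tables hold no values per library. For the same reason, other normalizations, filters and leaving out replicates were not run, and depth limits could not be set.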
